A study of Homo sapiens with 6 samples.

Results

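The 10 genes described here encode cohesin subunits and the proteins that load, modify, release and protect cohesin. They are the ring subunits SMC1A, SMC3 and RAD21, the STAG1 and STAG2 subunits, the loader NIPBL, the release factor WAPL, the acetyltransferases ESCO1 and ESCO2, and sororin, encoded by CDCA5. All 10 were found among the 33616 named genes of the arrays, each read by 1 probe set. The probe set was selected on its mean level: among those annotated with that gene alone, the brightest on average across the 6 arrays was kept. The genes were named with earlier results of this comparison known, so their counts describe them and are not independent evidence.

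RNA came from HepG2 cells, a hepatocyte-like line established from a liver tumour, grown in RPMI medium with serum. Of the samples, 3 had received 30 nM of an siRNA against UHMK1, and 3 controls had received 30 nM of a scrambled siRNA, both delivered with a lipid reagent and collected after 24 h. UHMK1 encodes a serine/threonine kinase known for phosphorylating the splicing factor SF1. Separate cultures are named nowhere in the labels, and the p-values therefore cover only the spread among these 6 samples, which may be technical. How many siRNA sequences targeted UHMK1 is not stated in the sources used here, and the comparison cannot separate loss of UHMK1 from other effects of that siRNA.

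UHMK1 itself stood at 8.36, 7.80 and 7.94 on the UHMK1 siRNA arrays, against 11.42, 11.24 and 11.74 on the scrambled siRNA arrays, in log2 units of RMA, the authors' array summary. Hepatocyte genes were bright, 8 of the 9 listed being measured at group means between 14.01 (FGB) and 19.11 (APOB). The summed level of those markers, in log2 units, ranged from 21.11 to 21.31 after UHMK1 siRNA and from 21.19 to 21.28 after scrambled siRNA. Of 16 measured markers of immune, endothelial, fibroblast or biliary cells, COL1A1, CD68 and SOX9 had a mean above 8. Summed immune markers (4 of 5 measured) ranged from 11.44 to 11.58 after UHMK1 siRNA and from 11.73 to 11.92 after scrambled siRNA, so the groups did not overlap. CD68 had a mean of 11.62 over all arrays, and PTPRC, CD3E and CD14 had means of 5.04, 5.86 and 5.03. The part of this gap in the results below was not tested. Of the 24 measured markers, 0 passed limma's threshold, an adjusted p under 0.05, and 1 (FGB, higher) did at an unadjusted p under 0.05. UHMK1 siRNA array 2 stood apart: relative to the scrambled siRNA mean, the median shift of the 8865 genes with a mean above 8 was -0.25 there, and -0.03 and -0.06 on UHMK1 siRNA arrays 1 and 3.

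Cohesin is a ring of SMC1A, SMC3 and RAD21, with STAG1 or STAG2 bound to it, that encircles DNA. It holds sister chromatids together from DNA replication until anaphase and forms chromatin loops in interphase, where CTCF often marks their anchors. NIPBL loads the ring onto DNA, and WAPL with PDS5 proteins opens it again. Acetylation of SMC3 by ESCO1 or ESCO2 and the binding of sororin counter WAPL, and sororin is known as a protein that accumulates in S and G2 phases and is destroyed after mitosis.

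The transcript of sororin fell steeply after UHMK1 siRNA, and it was the only member of the 10 to pass the threshold. CDCA5 had levels of 8.04, 8.13 and 8.16 on the UHMK1 siRNA arrays, against 10.66, 10.29 and 10.45 on the scrambled siRNA arrays. All UHMK1 siRNA arrays lay below all scrambled siRNA arrays, with 2.13 log2 units between the nearest values. The means were 8.11 ± 0.06 after UHMK1 siRNA and 10.47 ± 0.19 after scrambled siRNA (SD, n = 3 each). The log2 difference, UHMK1 siRNA minus scrambled siRNA, was -2.36 (SE 0.154, 95% confidence interval -2.71 to -2.01, limma's adjusted p = 0.000188). That amounts to a signal lower by 5.12-fold, or 19.5% of the scrambled siRNA level. Ranked by difference, CDCA5 was number 23 from the lowest of the 33616 genes, where UHMK1 was number 1. In bulk RNA, fewer cells that make a transcript and less of it per cell cannot be told apart.

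Leaving out any 1 array kept the CDCA5 difference between -2.45 and -2.26, and it passed each time. Without UHMK1 siRNA array 2, the array that stood apart, the difference was as large, at -2.37 (limma's adjusted p = 0.00137). A second, dimmer probe set annotated with CDCA5 alone stood at 5.69, 5.86 and 6.08 on the UHMK1 siRNA arrays and at 6.62, 6.70 and 6.63 on the scrambled siRNA arrays. Its groups did not overlap either, but its difference of -0.77 (SE 0.171) was smaller and did not pass over the 135750 probe sets (limma's adjusted p = 0.183). The mean of both probe sets gave -1.57 (adjusted p = 0.00105 in limma), so the size of the fall depends on the probe set while its direction does not.

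**Figure D1:**
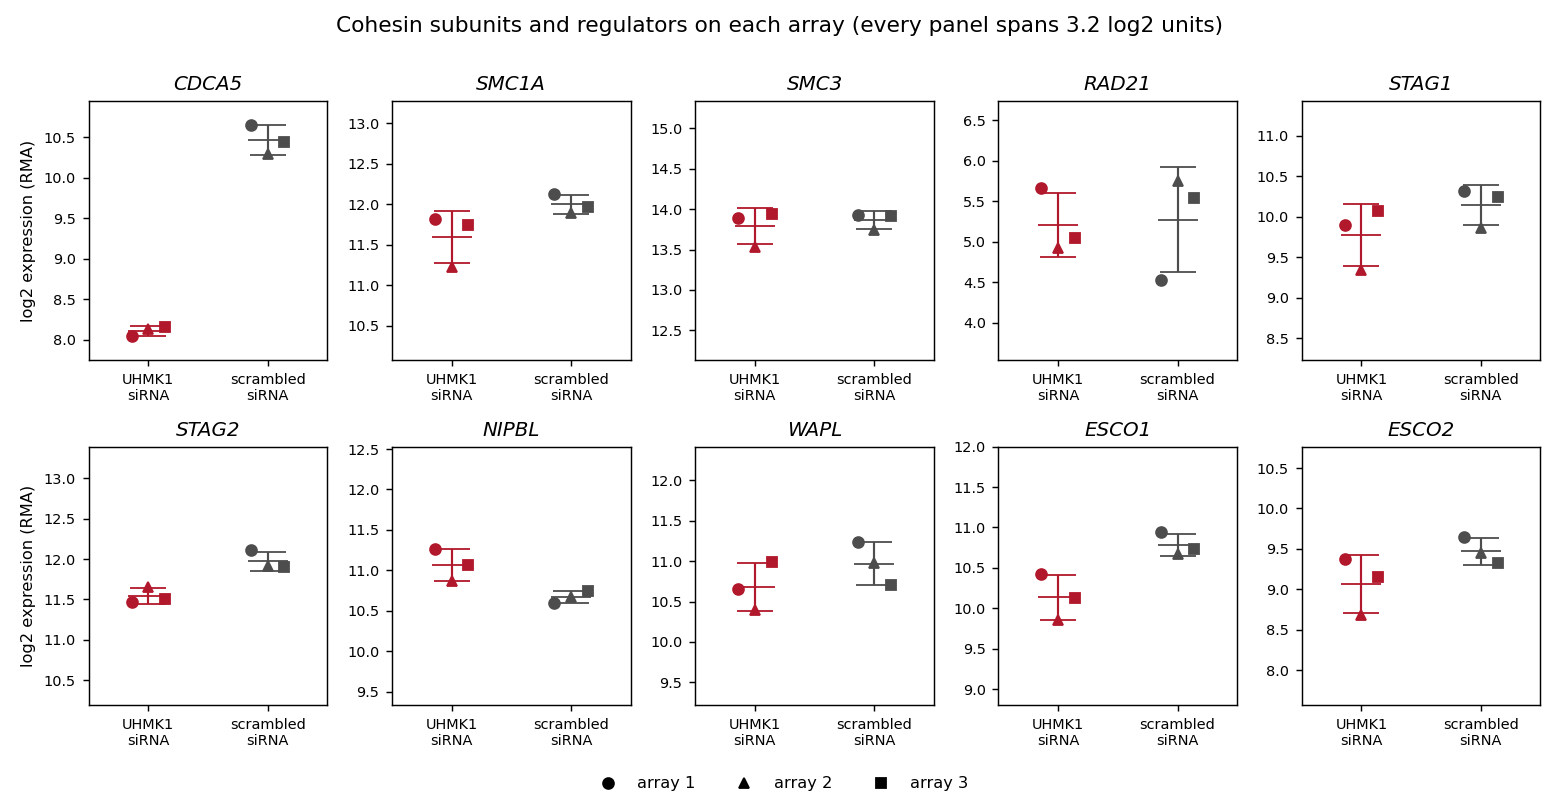
Log2 expression (RMA) of the 10 cohesin genes on each array, with UHMK1 siRNA (red) left of scrambled siRNA (grey) in every panel; symbols mark arrays 1 to 3, and bars show the mean and SD of 3 arrays. CDCA5 is the panel with a wide gap, its UHMK1 siRNA arrays lying at 8.04 to 8.16 and its scrambled siRNA arrays at 10.29 to 10.66.

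At limma's adjusted p under 0.05, 1 of the 10 cohesin genes was lower and 0 were higher, where 2.67% of the 33616 genes were lower, 0.726% higher and 3.39% either. At an unadjusted p under 0.05, 3 were lower (CDCA5, ESCO1 and STAG2) and 1 was higher (NIPBL), where 15.3% of all genes passed in either direction. Among the 8865 genes with a mean above 8, 2103 were lower and 791 higher at that level. In all, 9 of the 10 differences were negative, as were 18210 of all 33616 and 5543 of the 8865 genes with a mean above 8. The 9 include SMC3 (-0.08) and RAD21 on a dim probe set (-0.06), whose signs both turned without UHMK1 siRNA array 2. The sign of RAD21 also turned without other single arrays. The median of the 10 genes was -0.39, against a median of -0.02 over all genes and -0.11 over the genes with a mean above 8. On 6 of the 10 genes UHMK1 siRNA array 2 was the lowest of the 6 arrays, as it was for 47.3% of the genes with a mean above 8. Without that array the median of the 10 genes was -0.18 and 7 differences were negative.

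**Figure D2:**
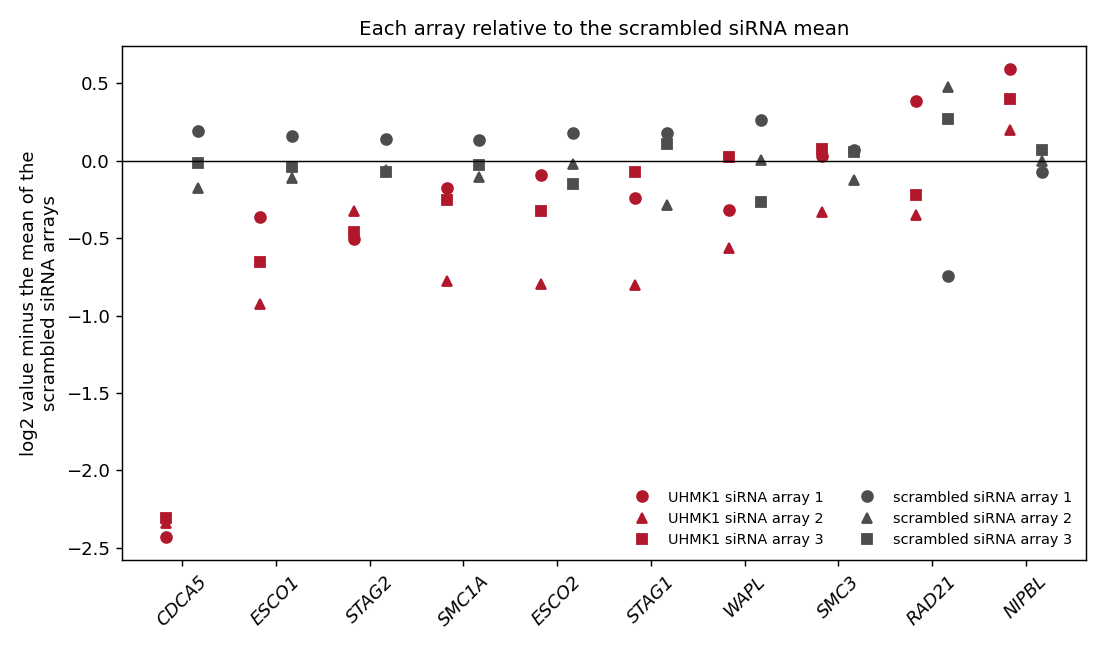
Log2 value of each array minus the mean of the scrambled siRNA arrays for the 10 cohesin genes, ordered by their difference, with UHMK1 siRNA (red) left of scrambled siRNA (grey) and symbols for arrays 1 to 3. CDCA5 lies more than 2 units below the line on all UHMK1 siRNA arrays, and UHMK1 siRNA array 2 (red triangle) is the lowest point for ESCO1, SMC1A, ESCO2, STAG1, WAPL and SMC3.

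Neither SMC ATPase of the ring passed the test. SMC3, the subunit that ESCO enzymes acetylate, stood at 13.89, 13.53 and 13.94 on the UHMK1 siRNA arrays, against 13.93, 13.74 and 13.92 on the scrambled siRNA arrays. The groups overlapped, and the difference was -0.08 (SE 0.165, 95% interval -0.45 to 0.29, limma's adjusted p = 0.888). The sign of this small difference turned without UHMK1 siRNA array 2 (0.05), and the interval lies wholly above that of CDCA5. SMC1A, its partner in the ring, had 11.82, 11.22 and 11.74 after UHMK1 siRNA and 12.13, 11.89 and 11.97 after scrambled siRNA. Its groups were separated by only 0.07, and the difference of -0.40 (SE 0.189, limma's adjusted p = 0.362) became -0.22 without UHMK1 siRNA array 2.

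RAD21, the kleisin that closes the ring and is cut at anaphase, was poorly measured by the probe set that carries its name alone. That probe set stood at 5.66, 4.92 and 5.05 after UHMK1 siRNA and at 4.53, 5.75 and 5.54 after scrambled siRNA and overlapped between groups. Its values were scattered, with SDs of 0.40 and 0.65, and the 95% interval of the difference (-0.06) ran from -0.79 to 0.66. A brighter probe set lists RAD21 together with MIR3610, a microRNA gene, and is therefore assigned to neither. It stood at 13.36, 13.43 and 13.43 on the UHMK1 siRNA arrays, against 13.08, 13.08 and 12.95 on the scrambled siRNA arrays, slightly higher without overlap. The difference of 0.37 (SE 0.156) did not pass over all probe sets (limma's adjusted p = 0.543). The dim probe set changed sign when single arrays were left out, so it gives no settled direction for RAD21 mRNA. The brighter probe set had a 95% interval of 0.015 to 0.725 before adjustment. It is not assigned to RAD21 alone, so its direction cannot be given as that of RAD21 mRNA.

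**Figure D3:**
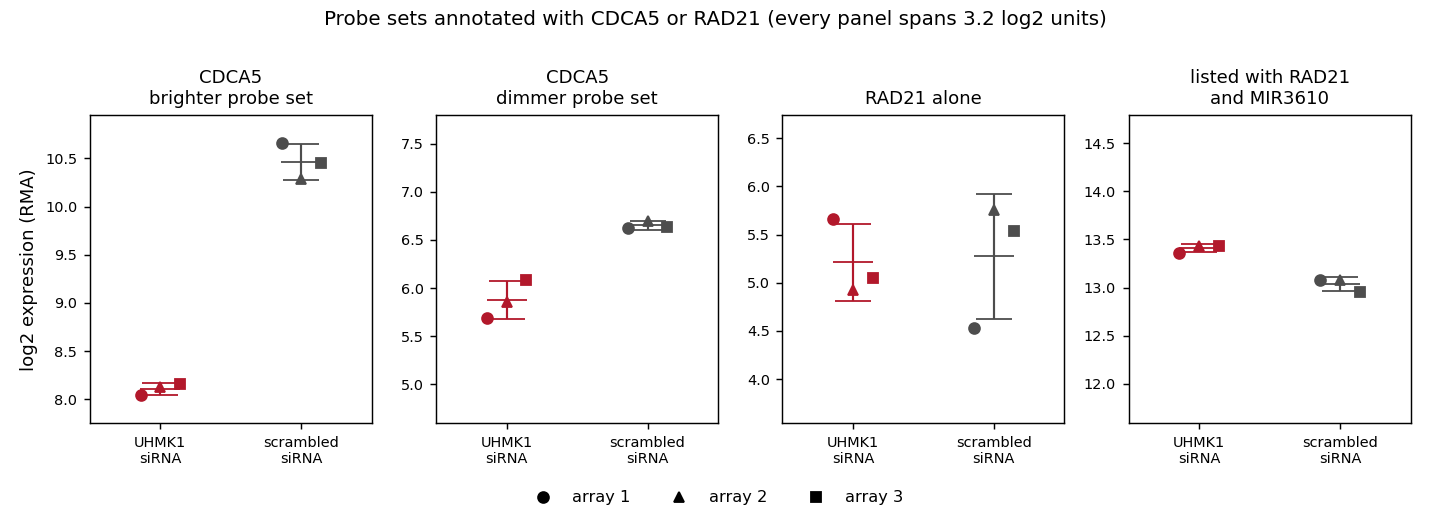
Log2 expression (RMA) on each array of the 2 probe sets annotated with CDCA5 alone, the 1 annotated with RAD21 alone and the 1 listed with RAD21 and MIR3610, with UHMK1 siRNA (red) left of scrambled siRNA (grey), symbols for arrays 1 to 3 and bars for the mean and SD. Both CDCA5 probe sets are lower after UHMK1 siRNA, at mean differences of -2.36 and -0.77, and the RAD21 probe set near 5 scatters across both groups.

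STAG2, the more abundant STAG subunit of many somatic cells, had 11.47, 11.65 and 11.51 after UHMK1 siRNA and 12.11, 11.91 and 11.90 after scrambled siRNA. The groups lay 0.25 apart, and the difference of -0.43 (SE 0.147, 95% interval -0.76 to -0.10) did not pass over all genes (limma's adjusted p = 0.184). UHMK1 siRNA array 2 was the highest of its UHMK1 siRNA arrays, and without that array the difference was -0.48. STAG1, its paralogue, had 9.90, 9.34 and 10.07 after UHMK1 siRNA and 10.32, 9.86 and 10.25 after scrambled siRNA. These groups overlapped, with a difference of -0.37 (SE 0.220, limma's adjusted p = 0.490) that was -0.16 without UHMK1 siRNA array 2.

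The loader and the release factor stood on opposite sides of 0, neither past the threshold. NIPBL had 11.26, 10.87 and 11.07 on the UHMK1 siRNA arrays, against 10.60, 10.67 and 10.74 on the scrambled siRNA arrays. On the probe sets kept, it was the only one of the 10 genes with a positive difference. That difference was 0.40 (SE 0.156, 95% interval 0.04 to 0.75, limma's adjusted p = 0.262), and the groups did not overlap. Without UHMK1 siRNA array 2, the difference was 0.49. WAPL had 10.65, 10.40 and 10.99 after UHMK1 siRNA and 11.23, 10.97 and 10.70 after scrambled siRNA, overlapping, with a difference of -0.29 (SE 0.203, limma's adjusted p = 0.580).

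Of the acetyltransferases, ESCO1, which acts throughout the cell cycle, had the second largest negative difference of the 10 genes. It stood at 10.42, 9.86 and 10.13 after UHMK1 siRNA and at 10.94, 10.67 and 10.74 after scrambled siRNA, with 0.25 between the groups. The difference of -0.65 (SE 0.180, 95% interval -1.05 to -0.24) missed the threshold (limma's adjusted p = 0.104), and it was -0.51 without UHMK1 siRNA array 2. ESCO2, which acts in S phase and whose loss causes Roberts syndrome, had 9.38, 8.68 and 9.15 after UHMK1 siRNA and 9.65, 9.45 and 9.32 after scrambled siRNA. Its groups overlapped, and the difference of -0.40 (SE 0.202, limma's adjusted p = 0.398) was -0.21 without UHMK1 siRNA array 2. Groups that did not overlap were thus seen for 4 genes downward (CDCA5, SMC1A, STAG2 and ESCO1) and for NIPBL upward, where 13.3% of all genes lay apart downward and 7.74% upward. Of the 8865 genes with a mean above 8, where 9 of the 10 lie, 2661 lay apart downward and 1154 upward.

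To set each regulator against the ring on the same array, the mean of SMC1A, SMC3 and RAD21 was subtracted from it. Relative to the ring, the difference (UHMK1 siRNA minus scrambled siRNA) was -2.18 log2 units for CDCA5, -0.47 for ESCO1 and 0.58 for NIPBL. Each had an exact two-sided permutation p = 0.1, the smallest that 3 arrays against 3 allow. The other 4 regulators lay between -0.25 (STAG2) and -0.11 (WAPL), at exact permutation p values of 0.3 to 0.8, and WAPL turned positive without UHMK1 siRNA array 1 or scrambled siRNA array 1. With the dim RAD21 probe set left out of the ring mean, an alternative chosen after seeing the data, the values were -2.12 for CDCA5, -0.41 for ESCO1 and 0.64 for NIPBL. None of these 7 comparisons could pass a threshold of 0.05 with 3 arrays against 3, so the values are a description.

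Other proteins that act on cohesin were taken as lists, again written with earlier results known. Of 41 measured genes in 6 lists, 4 fell and 0 rose, 9.76% lower against the background of 2.67% of all genes and 8.39% of genes with a mean above 8. Their median difference was -0.35, and 37 of 41 differences were negative. The medians and signs of the lists, here and below, include UHMK1 siRNA array 2, with its median shift of -0.25. They were not computed without it. Of the 8865 genes with a mean above 8, where 32 of the 41 lie, 5543 had a negative difference. The constitutive partners MAU2 (the NIPBL co-loader), PDS5A, PDS5B, HDAC8 (the SMC3 deacetylase) and CTCF had 0 calls in limma and 0 at an unadjusted p under 0.05, with differences from -0.29 for MAU2 to -0.01 for PDS5B. PDS5A, for example, had 13.58, 13.65 and 13.61 after UHMK1 siRNA and 13.76, 13.64 and 13.78 after scrambled siRNA.

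Genes that help establish cohesion at the replication fork held 3 of the 4 falls, out of 9 measured, with a median of -0.63. Those 3 are 33.3% of a list written with earlier results known, beside 8.39% of genes with a mean above 8. All 9 differences were negative, beside the same 5543 of 8865 genes with a mean above 8. DSCC1, a subunit of the alternative clamp loader with CHTF18 and CHTF8, had 7.07, 6.78 and 7.09 after UHMK1 siRNA and 8.54, 8.07 and 7.97 after scrambled siRNA. It fell by 1.21 (SE 0.190, limma's adjusted p = 0.0100), and every UHMK1 siRNA array lay below every scrambled siRNA array. Its partners CHTF18 and CHTF8 did not pass and stood at -0.18 and -0.10. Claspin (CLSPN), the checkpoint mediator at the fork, had 10.40, 9.95 and 10.37 after UHMK1 siRNA and 11.21, 11.51 and 11.49 after scrambled siRNA, a fall of 1.16 (SE 0.178, adjusted p = 0.00906 in limma).

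TIPIN, of the fork protection complex, had 8.55, 8.77 and 9.03 after UHMK1 siRNA and 9.92, 9.68 and 9.49 after scrambled siRNA, and fell by 0.91 (SE 0.183, limma's adjusted p = 0.0298). Its partner TIMELESS stood at -0.50 (adjusted p = 0.221 in limma), and the clamp PCNA, the fork factor WDHD1 and the helicase DDX11 at -0.63, -0.65 and -0.59. TIPIN no longer passed when any array other than UHMK1 siRNA array 3 was left out, at -1.02 to -0.80. CLSPN lost its call without scrambled siRNA array 2 (-1.11, adjusted p = 0.0558) or 3 (-1.12, 0.0505), whereas DSCC1 kept it with any array left out (-1.33 to -1.04).

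In the list of genes for cleaving and protecting cohesin, CDC20 was the 1 of 9 that fell. That is 11.1% of the list, beside 8.39% of genes with a mean above 8 and 2.67% of all genes. CDC20, the activator of the ubiquitin ligase that triggers anaphase, had 12.80, 12.42 and 12.89 after UHMK1 siRNA and 13.61, 13.91 and 14.01 after scrambled siRNA, a fall of 1.14 (SE 0.183, limma's adjusted p = 0.0114). It lost its call without scrambled siRNA array 2 (-1.11) or 3 (-1.06). Securin (PTTG1), which holds separase in check, stood at -0.55 (adjusted p = 0.0930) and separase (ESPL1) at -0.35 (0.349). The centromere protectors SGO1 and SGO2 stood at -0.46 and -0.35, and the mitotic kinases AURKB, PLK1, BUB1 and HASPIN at -0.67, -0.49, -0.43 and -0.41. The median was -0.46, and 6 of the 9 were lower at an unadjusted p under 0.05, as were 3381 of the 33616 genes and 2103 of the 8865 with a mean above 8, where 8 of the 9 lie.

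Related SMC complexes had no calls in the fit reported here. Among 8 condensin genes, all with a mean above 8, limma called 0. At an unadjusted p under 0.05 6 were lower, beside the same 2103 of 8865 genes with a mean above 8, and the median was -0.39. The most negative difference was at NCAPG (-0.82, limma's adjusted p = 0.0684), which passed with dim genes left out and with a trended and robust variance. The 6 genes of the SMC5/6 complex had 0 calls and 0 at an unadjusted p under 0.05, with a median of -0.11. The meiotic paralogues SMC1B, STAG3, REC8 and RAD21L1, all with a mean below 8, also had 0 calls, with 1 higher at an unadjusted p under 0.05. That was REC8, at 6.89, 6.84 and 6.97 after UHMK1 siRNA and 6.40, 6.78 and 6.13 after scrambled siRNA (0.46, limma's adjusted p = 0.270).

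**Figure D4:**
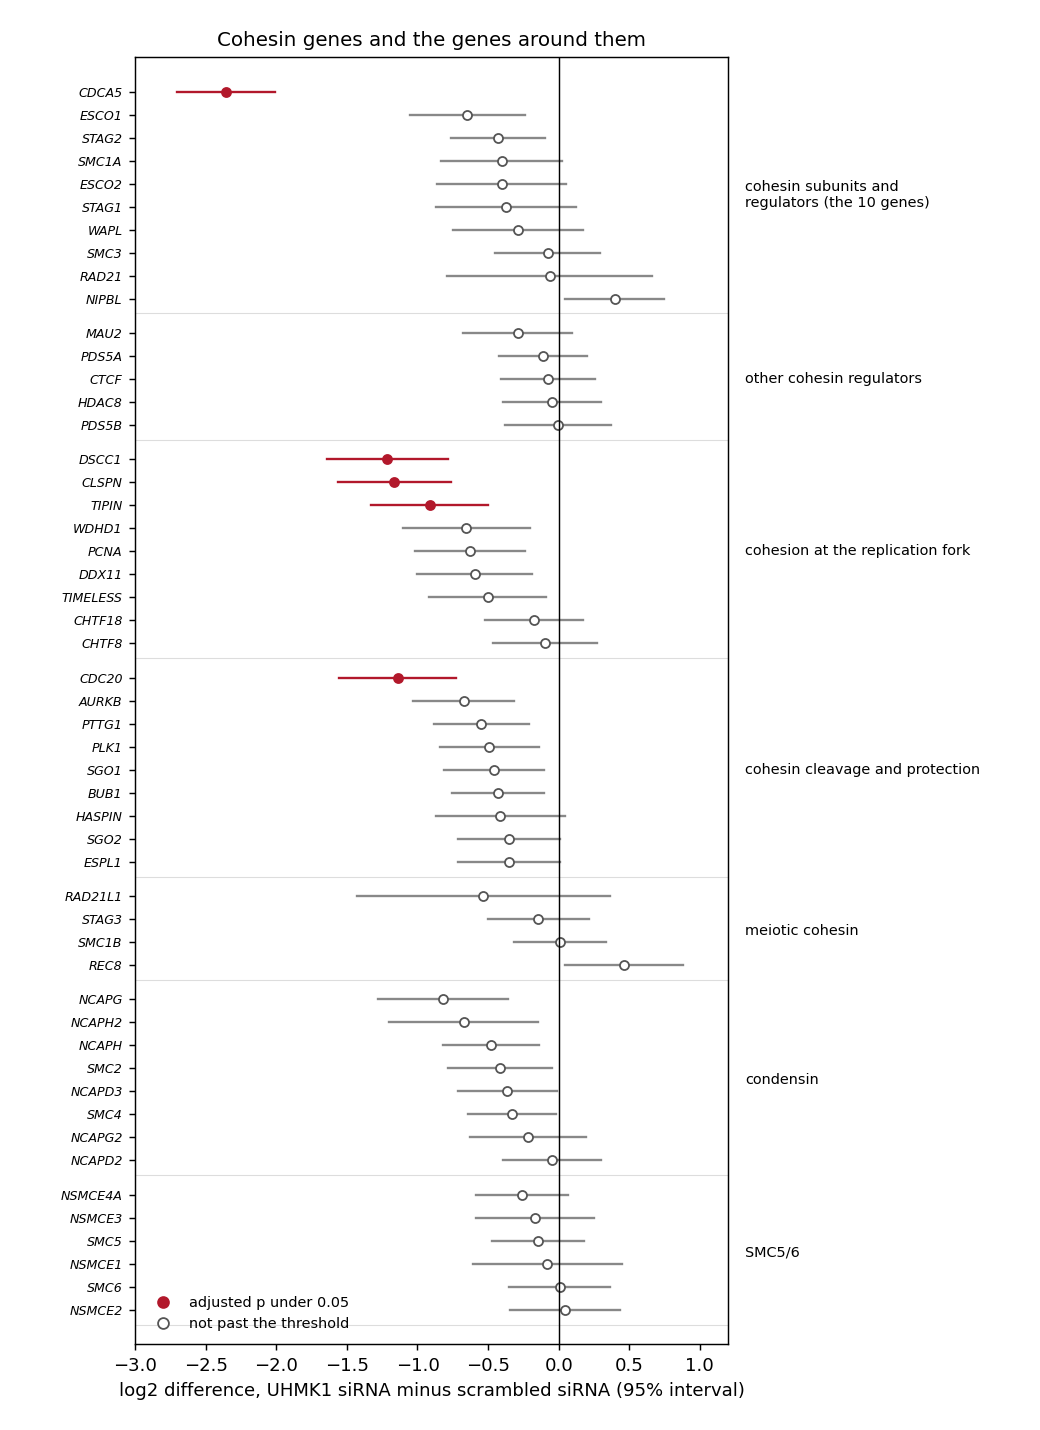
Difference in log2 level (UHMK1 siRNA minus scrambled siRNA) and its 95% interval from limma for the 10 cohesin genes and the genes of 6 related lists, where filled red points have an adjusted p under 0.05. CDCA5 at -2.36 lies apart from the other cohesin genes, which range from -0.65 to 0.40, and the other filled points are DSCC1, CLSPN, TIPIN and CDC20.

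Promoter windows were read for short elements known from cell cycle genes. Shown are 3 genes that fell (CDCA5, CLSPN and CDC20) and NIPBL, the member with a positive difference. The RefSeq windows (GRCh38.p14) run from 250 bases before to 50 bases after the gene start, and 7 of the 10 genes have one in the table used, those without being RAD21, ESCO1 and ESCO2. Capitals mark E2F elements (TTTCGCGC, TTTGGCGC or TTTCCCGC), CHR elements (TTTGAA or TTCGAA) and CCAAT boxes, on either strand. CDCA5 is shown at chr11:65083991-65084290 (minus strand), CLSPN at chr1:35769929-35770228 (minus strand), CDC20 at chr1:43358731-43359030 (plus strand) and NIPBL at chr5:36876519-36876818 (plus strand), each 5′ to 3′ along its gene.
CDCA5: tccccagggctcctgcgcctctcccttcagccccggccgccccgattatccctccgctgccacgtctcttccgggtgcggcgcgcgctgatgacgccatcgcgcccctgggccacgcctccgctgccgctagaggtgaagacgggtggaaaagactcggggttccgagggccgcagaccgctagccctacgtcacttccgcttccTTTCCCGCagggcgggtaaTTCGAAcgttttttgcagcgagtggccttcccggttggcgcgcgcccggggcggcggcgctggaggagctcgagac
CLSPN: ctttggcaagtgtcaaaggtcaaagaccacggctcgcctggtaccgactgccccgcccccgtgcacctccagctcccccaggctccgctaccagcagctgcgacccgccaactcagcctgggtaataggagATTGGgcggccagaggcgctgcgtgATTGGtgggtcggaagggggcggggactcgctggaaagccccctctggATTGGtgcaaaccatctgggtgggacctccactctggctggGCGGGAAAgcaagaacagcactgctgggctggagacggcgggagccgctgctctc
CDC20: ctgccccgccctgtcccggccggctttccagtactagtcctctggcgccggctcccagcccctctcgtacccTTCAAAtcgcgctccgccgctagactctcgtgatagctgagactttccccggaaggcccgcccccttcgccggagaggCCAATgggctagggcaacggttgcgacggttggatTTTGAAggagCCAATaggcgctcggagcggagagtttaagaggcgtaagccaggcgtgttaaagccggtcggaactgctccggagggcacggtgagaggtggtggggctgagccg
NIPBL: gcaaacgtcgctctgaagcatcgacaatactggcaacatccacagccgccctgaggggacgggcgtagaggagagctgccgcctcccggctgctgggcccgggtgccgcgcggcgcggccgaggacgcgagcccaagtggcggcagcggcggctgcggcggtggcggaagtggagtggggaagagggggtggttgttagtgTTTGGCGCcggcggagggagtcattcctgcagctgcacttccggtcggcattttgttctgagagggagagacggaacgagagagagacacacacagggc

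In the CDCA5 window an E2F match, TTTCCCGC, begins at position -45 on the gene's strand, counted from the first transcribed base. A CHR match, TTCGAA, begins at position -26, and these letters read the same on both strands. CLSPN has an E2F match at position -5 on the opposite strand and 3 CCAAT boxes, and CDC20 has 2 CHR matches and 2 CCAAT boxes. NIPBL also holds an E2F match, TTTGGCGC, at position -49, so the element is not limited to genes that were lower. TIPIN holds 1 CCAAT box and no E2F or CHR match, and DSCC1, which also fell, has no window in the table used.

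Of the 7 cohesin promoters, 3 held an E2F match (CDCA5, STAG1 and NIPBL), 2 a CHR match (CDCA5 and SMC3) and 3 a CCAAT box (STAG1, STAG2 and WAPL). Among all 27305 promoters of the table the shares were 2.79% for E2F, 16.6% for CHR and 35.7% for CCAAT. Among the 14070 promoters of measured protein-coding genes, to which the 7 belong, they were 3.75%, 13.4% and 36.5%. CDCA5 was the only one of the 7 with both E2F and CHR. In the list for cleaving and protecting cohesin, 8 of 8 promoters held a CCAAT box and 5 a CHR match. Searches for the NRF1 palindrome, the ETS element (CCGGAAGT) and the YY1 element matched 0, 1 (NIPBL) and 0 of the 7 cohesin promoters, and 1.36%, 4.44% and 0.916% of all promoters. Among the promoters of measured protein-coding genes these shares were 1.78%, 6.25% and 1.41%. No match overlapped one of another element in the 44 windows searched around cohesin.

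The genes whose levels followed CDCA5 most closely over the 6 arrays were sought among protein-coding genes, as the smallest root mean square difference of log2 values after each gene was centred on its own mean. They were PPA1, an inorganic pyrophosphatase, at 0.079 log2 units, OSTM1, a lysosomal membrane protein, at 0.144, MRPL36 of the mitochondrial ribosome at 0.17, YRDC, a tRNA modification enzyme, at 0.175, and the helicase DHX33 at 0.191. PPA1 had 9.83, 9.79 and 9.75 after UHMK1 siRNA and 12.29, 12.06 and 12.05 after scrambled siRNA, a difference of -2.34 (SE 0.145, limma's adjusted p = 0.000143). The 5 genes differed by -2.59 to -2.14, and none belongs to the cohesin lists. The likeness was measured on the arrays of this comparison itself and includes the difference between groups. It does not show that these genes vary with CDCA5 within a group, so it is a description, as is the p-value of PPA1.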

How the data were processed

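For 6 arrays and 135750 probe sets, log2 values were deposited with 2 decimals. The submitters' processing notes name Transcriptome Analysis Console 4.0 and RMA. In general RMA removes background, quantile-normalizes arrays and summarises each probe set. It can compress large changes, and it fixes the overall level of an array, so a change of total RNA is not visible. The deposited arrays were still not fully matched. UHMK1 siRNA array 2 had a median of 4.55 over all probe sets and a highest value of 19.36. On the other arrays the medians were 4.4 to 4.43 and the highest value was 19.93. The genome build behind the array design is not stated in the sources used here. Values were used as deposited. Probe sets with 1 symbol (36176) took it from the platform annotation, symbols were updated by Entrez ID to RefSeq (GRCh38.p14), and per gene the probe set brightest on average was kept. Levels of different genes are not compared, since probe sets differ in affinity.

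UHMK1 siRNA was set against scrambled siRNA with limma 3.58.1 in R 4.3.3 (lmFit, eBayes, two-sided, 3 arrays against 3, no covariates), with Benjamini-Hochberg adjustment over 33616 genes. The fit was tested on simulated data. Alternatives were quantile and cyclic loess normalization, a filter on dim genes (mean above 4.44, the median of all values), the mean of a gene's probe sets, a trended and robust variance, array weights, a replicate block and leaving out each array. Members, lists and elements searched were chosen with earlier results of these data known. Genes named are UHMK1, the 10 members, the listed genes and the 5 nearest to the member with the largest difference.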

Additional observations from a re-analysis of the deposited data

Results flagged for a closer look

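A signal in data outside the main measurement lay above the level in the control samples. The probe set listed with RAD21 and MIR3610, which the naming rule leaves out, was 0.37 log2 units higher, at 13.41 ± 0.04 after UHMK1 siRNA and 13.04 ± 0.08 after scrambled siRNA (SD, n = 3 each), and every UHMK1 siRNA array lay above every scrambled siRNA array. The difference did not pass over all probe sets (limma's adjusted p = 0.543). Of all named genes 7.74% lay apart upward, as did 1154 of the 8865 with a mean above 8.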

How the results depend on the processing

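CDCA5 was the 1 cohesin gene called under all 13 alternatives to the values reported, at log2 differences of -2.45 to -1.57, and 0 cohesin genes rose under any. The directions of SMC3 and of RAD21, on its dim probe set, were not stable. SMC3 was at 0.004 with array weights, and leaving out 1 array gave -0.153 to 0.052, the positive value coming without UHMK1 siRNA array 2. RAD21 was at 0.004 with array weights, and leaving out 1 array gave -0.435 to 0.175, with 0.082 and 0.017 without UHMK1 siRNA arrays 2 and 3, and 0.175 and 0.070 without scrambled siRNA arrays 2 and 3. The difference between groups in WAPL relative to the ring ranged from -0.29 to 0.12 with 1 array left out. It was 0.039 when UHMK1 siRNA array 1 was left out and 0.117 when scrambled siRNA array 1 was left out. Of the 41 related genes, 9 fell with a trended and robust variance and 6 with dim genes left out, NCAPG and AURKB among both, and 1 to 4 fell with 1 array left out. Over all genes, 400 rose with the trended and robust variance and 402 with array weights. Leaving out 1 array gave 70 to 237 rises and 319 to 662 falls. The cause of these changes in counts was not tested, and a fit with 1 array left out also rests on fewer arrays. Same-numbered arrays did not deviate together (correlations of 0.05, 0.03 and -0.04 across genes). With 3 arrays a group, this cannot decide whether same-numbered samples were handled together, and the main fit did not pair them. With the replicate number as a block, 146 genes rose and 576 fell, CDCA5 stayed at -2.36 (limma's adjusted p = 0.00240) and TIPIN lost its call (0.0784). With 3 arrays a group, a difference that missed the threshold does not show an unchanged gene, and dim probe sets such as that of RAD21 limit what can be seen.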
